A study of Mus musculus with 12 samples.

Results

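Nfkb1, Nfkb2, Rel, Rela and Relb encode the 5 Rel subunits of the transcription factor NF-κB, and Nfkbia, Nfkbie, Nfkbiz, Bcl3 and Tnfaip3 encode 5 proteins that hold back or adjust their activity. These 10 genes were taken by symbol from the 26608 genes of the count tables, and all 10 had enough reads to be among the 16035 genes tested.

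NF-κB proteins act as dimers of Rel subunits. RELA, RELB and c-REL carry an activation domain, whereas the products of Nfkb1 and Nfkb2 are cut from longer precursors to DNA-binding forms that lack such a domain. Classical inhibitors (IκB proteins) keep the dimers in the cytoplasm until IκB kinase marks them for degradation, and several inhibitor genes are themselves switched on by NF-κB, so that the signal limits itself. In CD4+ T cells the pathway lies downstream of the antigen receptor and of receptors of the TNF family, and it takes part in activation, survival and the differentiation of helper and regulatory T (Treg) cells.

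The sequenced RNA came from sorted CD4+ YFP(FOXP3)- T cells. Spleen was pooled with lymph nodes, both inguinal and cervical, of mice aged 14 weeks on the B6 background, and 1 library was made per mouse, with 4 mice in each of 3 groups. All mice carried Foxp3-Cre, a YFP and Cre fusion driven by the Foxp3 locus. WT mice were Foxp3Cre WT, and both DKO groups were Foxp3-Cre Tet2/3 fl/fl, in which loxP-flanked Tet2 and Tet3, genes of DNA demethylating enzymes, are deleted in cells that have expressed Foxp3. The study called these mice DKO-moderate or DKO-severe by the total number of leukocytes in their spleen and lymph nodes. Cells without YFP can include former Treg cells that lost FOXP3, which carry the deletion, and conventional CD4+ T cells. Foxp3-Cre is known to be active at times outside Treg cells, so some conventional cells may carry the deletion too, and a DKO library does not separate these cells. In such bulk samples, fewer cells of a type and less RNA per cell cannot be told apart.

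Between 29254260 and 42133536 reads fell on genes in each library. The summed level of 7 general T cell genes was 3964.5 to 4962.5 CPM (the reads of a gene as a scaled share of the library, here with TMM factors) in all 12 libraries, and Cd4 was at 863.9 to 1367.9 CPM. Tet2 was at 43.3 to 62.2 CPM in WT, 34.8 to 57.8 for DKO-moderate and 56.7 to 65.8 for DKO-severe, and Tet3 at 167.4 to 210.4, 90.3 to 184.7 and 87.8 to 102.4 CPM; a total per gene does not separate the floxed part from the rest, and Foxp3 stayed at or below 3.10 CPM in every library. Transcripts of other cells differed between the groups. The summed CPM of 10 neutrophil genes was 0.0273 to 4.23 in WT, 0.0994 to 4.22 for DKO-moderate and 10.1 to 2257.2 for DKO-severe, where replicates 1 and 2 held 2257.2 and 829.9. Compared with WT, 9 of the 10 passed as higher in DKO-severe, and Elane had no reads in any WT library. The sum of 8 B cell genes was 6.81 to 15.2 CPM in 3 WT libraries and 212.4 in WT replicate 3, 21.5 to 47.5 in DKO-moderate and 70.4 to 383.0 in DKO-severe; 1 of the 8 passed as higher against WT, and none was at 0 in all libraries of a group. The sum of 8 monocyte and macrophage genes was 11.7 to 25.1 CPM in 3 WT libraries and 191.4 in WT replicate 3, 28.5 to 70.9 for DKO-moderate and 71.3 to 426.7 for DKO-severe (3 of 8 passed as higher against WT), and that of 6 dendritic cell genes 0.776 to 1.61 CPM and 10.3, 1.54 to 2.91 and 11.5 to 18.7 (1 of 6). Genes of naive T cells, 8 in number, summed to 4925.1 to 5649.0 CPM in WT, 2722.2 to 4289.3 for DKO-moderate and 1841.3 to 2409.4 for DKO-severe, and 7 of them passed as lower in DKO-severe against WT. The part of these cells in the results was not tested beyond the fits given with each result, which include one without DKO-severe replicates 1 and 2 and WT replicate 3. That fit does not remove the difference, because other cells still differed between the libraries it kept. DKO-severe replicates 3 and 4 held B cell sums of 70.4 and 154.4 CPM, and the kept WT libraries 6.81 to 15.2. Their neutrophil sums were 23.7 and 10.1 CPM, and those of the kept WT libraries 0.0273 to 0.258.

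RefSeq promoter windows of 300 bases (250 before to 50 after the annotated start, GRCm38.p6) were held for 7 of the 10 genes, Nfkb2, Rel, Rela, Nfkbia, Nfkbie, Bcl3 and Tnfaip3, and were searched on both strands for the κB consensus, the sequence that Rel dimers bind. At least 1 match lay in a window of 6 of these 7 genes, against 5.14% of the 27025 genes and 4.51% of the 32851 windows in the table; the Rela window held no match to these letters. The stretches are shown because most of these genes also encode parts of the feedback that NF-κB exerts on itself. Each is written 5′ to 3′ on the gene's strand with 15 flanking bases, capitals mark the match, and overlapping matches are joined.
Nfkb2, chr19:46304683-46304750, plus strand: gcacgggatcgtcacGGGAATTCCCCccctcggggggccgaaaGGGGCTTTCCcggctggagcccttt
Rel, chr11:23771036-23771076, minus strand: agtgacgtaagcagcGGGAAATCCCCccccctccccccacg
Nfkbia, chr12:55492652-55492691, minus strand: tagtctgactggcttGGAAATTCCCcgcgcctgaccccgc
Nfkbie, chr17:45555579-45555618, plus strand: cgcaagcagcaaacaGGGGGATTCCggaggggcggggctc
Bcl3, chr7:19822729-19822768, minus strand: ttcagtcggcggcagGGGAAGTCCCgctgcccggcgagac
Tnfaip3, chr10:19015398-19015550, minus strand: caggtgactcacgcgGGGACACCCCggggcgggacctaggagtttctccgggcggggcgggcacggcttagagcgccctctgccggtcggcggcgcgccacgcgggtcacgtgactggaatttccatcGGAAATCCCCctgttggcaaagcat
The matches began 39 and 11 bases before the start of Nfkb2, 92 before that of Rel, 29 before that of Nfkbia, 106 before that of Nfkbie, 125 and 12 before that of Tnfaip3, and 2 bases past that of Bcl3. Another 2 annotated starts of Nfkb2 also had matches in their windows, and a downstream start of Tnfaip3 had none. A match describes the letters in the window and does not show that a factor binds there. Genes with a match were found among those that rose in DKO-severe (Nfkb2, Nfkbie and Bcl3), those that fell (Tnfaip3 and, narrowly, Nfkbia) and those that did not pass the test (Rel). The fall of Nfkbia passed in only 1 of 12 other fits.

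In DKO-severe compared with WT, transcripts of 3 of the 5 subunits rose (Nfkb1, Nfkb2 and Relb). Those of the 5 genes grouped here as inhibitors split, with Nfkbie and Bcl3 higher and Tnfaip3 and, narrowly, Nfkbia lower. Of these, the product of Bcl3 can also lend Rel dimers an activation domain. The largest rises were 2.58-fold for Bcl3 and 2.33-fold for Nfkb1, and Tnfaip3 fell to 0.252 of its WT level. In total 7 of the 10 genes passed an adjusted p of 0.05 (edgeR quasi-likelihood test, Benjamini-Hochberg over all tested genes), 5 higher and 2 lower, in a comparison in which 52.6% of all tested genes passed, 26.6% higher and 25.9% lower. Other fits moved this split, with 6 higher and 1 lower with library size alone, 5 and 1 with DESeq2, DESeq2 size factors or limma voom, and 5 and 0 without the 3 libraries rich in genes of other cells. The CPM of 6 of the 10 did not overlap between the groups, as for 51.9% of all tested genes. The median log2 fold change of the 10 was 0.49, and that of all tested genes -0.01. The split between directions depended on the scaling, as 50.7% of all called genes were higher with TMM and 66.5% with library size alone, and between the DKO groups the share was 46.9% with TMM, 59.6% with DESeq2 size factors and 64.9% with library size alone. In DKO-moderate compared with WT, 2 of the 10 passed, both higher, against 17.1% of all genes (12.3% higher and 4.74% lower), and 3 did not overlap, against 24.8% of all genes. In DKO-severe compared with DKO-moderate, 4 of the 10 passed, all higher, against 20.1% of all genes (9.41% higher and 10.7% lower), and 3 did not overlap, against 21.3%. The 3 comparisons share libraries and are not independent of each other. With terms for neutrophil and B cell genes in the fit, Nfkb1, Nfkb2, Nfkbie and Bcl3 still passed in DKO-severe against WT. None of the 10 passed between the DKO groups, where 4 of the 10 had an unadjusted p under 0.05. There the log2 difference was 1.03 for Nfkb1 (edgeR adjusted p = 0.0743, 0.87 without the terms) and 0.62 for Nfkb2 (0.179, 0.63 without). It was 0.73 for Nfkbie (0.0572, 0.56 without) and 0.35 for Bcl3 (0.489, 0.63 without). The summed neutrophil level of every DKO-severe library (at least 10.1 CPM) lay above that of all others (at most 4.23 CPM), so these terms overlap with the group.

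**Figure D1:**
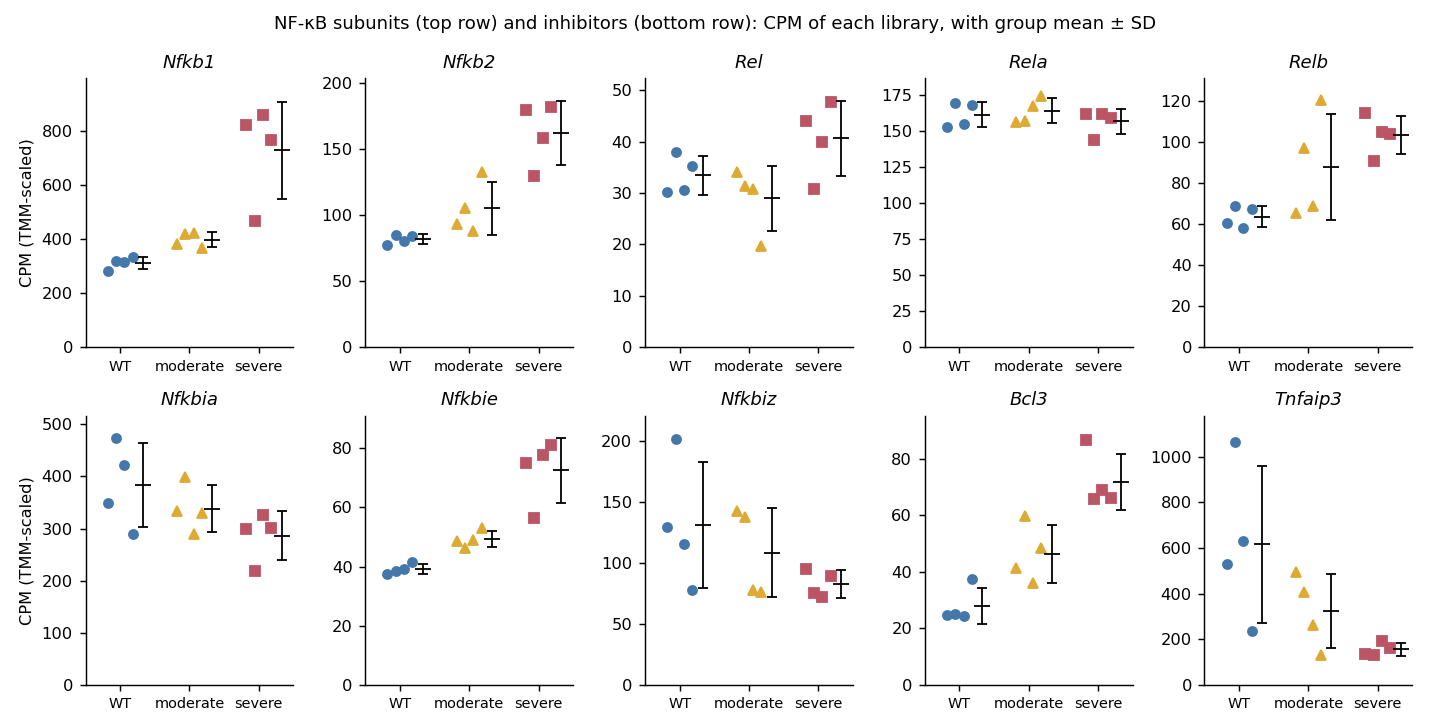
TMM-scaled CPM (vertical axes, from 0) of the 5 subunits and the 5 inhibitors in each of 12 libraries, grouped as WT, DKO-moderate and DKO-severe; each point is 1 library, and the black marks give the group mean ± SD (n = 4). Nfkb1 lay between 282.4 and 334.8 CPM in WT and between 468.1 and 860.7 CPM in DKO-severe, while Rela lay between 144.1 and 174.4 CPM in all 12 libraries.

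Nfkb1 (ENSMUSG00000028163, chr3:135584655-135691547, minus strand, GRCm38) encodes the precursor of the p50 subunit. Its CPM was 282.4, 318.6, 315.3 and 334.8 for WT, 381.6, 418.9, 423.4 and 368.7 for DKO-moderate, and 822.3, 468.1, 860.7 and 765.8 for DKO-severe (replicates 1 to 4, here and for the other genes). The 3 groups did not overlap in either neighbouring pair, and DKO-severe replicate 2 was the lowest of its group by a wide margin. That library was the lowest of its group for all of the 10 genes except Nfkbiz. It also had the highest summed levels of B cell genes (383.0 CPM) and of monocyte and macrophage genes (426.7 CPM) of all libraries. Their part in these levels was not tested. The rise in DKO-severe was 1.22 on the log2 scale (SE 0.16, edgeR adjusted p = 6.94e-05) against WT and 0.87 (SE 0.16, adjusted p = 0.00536) against DKO-moderate. The difference between DKO-moderate and WT, 0.35 (SE 0.16), did not pass (adjusted p = 0.145), although it did so without DKO-severe replicate 2 (adjusted p = 0.0177), with only the groups compared (adjusted p = 0.0298) and without the 3 libraries rich in genes of other cells (adjusted p = 0.0492), in a range of 0.0177 to 0.286 over the alternatives. The study names Nfkb1 among genes significantly upregulated in its DKO-moderate and DKO-severe cells against WT. Its text gives no cutoff for this statement, so the threshold used here may be another. In its heatmap it lists Nfkb1 with genes that were mostly highest in DKO-severe cells. With DESeq2, the tool of the study, the DKO-moderate difference did not pass here either (0.36, adjusted p = 0.0888). Without the 3 libraries rich in genes of other cells, the rise of DKO-severe against WT was 1.38 (edgeR adjusted p = 0.000115, with a range of 1.9e-14 to 0.00474 over the alternatives).

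Nfkb2 (ENSMUSG00000025225, chr19:46304320-46312385, plus strand) encodes the precursor of p52, the subunit of the noncanonical branch. WT libraries lay close together, with 77.2, 85.1, 80.5 and 84.3 CPM. The CPM was 93.6, 105.7, 88.4 and 132.6 for DKO-moderate, and 179.2, 129.9, 158.0 and 182.0 for DKO-severe. Every DKO library was thus above every WT library, and the DKO groups overlapped only through DKO-moderate replicate 4 and DKO-severe replicate 2. Nfkb2 rose by 0.99 (SE 0.13, adjusted p = 9.69e-05) in DKO-severe against WT and by 0.63 (SE 0.13, adjusted p = 0.00919) against DKO-moderate, the latter not with a term for immediate early genes (adjusted p = 0.0834, range 2.7e-05 to 0.179), while 0.36 (SE 0.13) for DKO-moderate against WT did not pass (adjusted p = 0.0823). That last difference did pass with DESeq2 (adjusted p = 0.0406) and without DKO-moderate replicate 3 (adjusted p = 0.0459), in a range of 0.0406 to 0.193. Psd lies on the opposite strand at this locus, and the reads were counted by strand.

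Relb (ENSMUSG00000002983, chr7:19606217-19629438, minus strand) encodes the usual partner of p52. Its CPM was 60.6, 68.6, 58 and 67.1 for WT, 65.5, 96.9, 68.9 and 120.3 for DKO-moderate, and 113.8, 90.9, 104.9 and 103.7 for DKO-severe. The DKO-moderate libraries fell apart into replicates 1 and 3, within or just above the WT range, and replicates 2 and 4, within or above the range of DKO-severe. Relb was higher in DKO-severe than in WT by 0.70 (SE 0.17, adjusted p = 0.00423), and this did not pass with terms for neutrophil and B cell genes (0.51, adjusted p = 0.206) or for immediate early genes (0.42, adjusted p = 0.119), in a range of 6.78e-05 to 0.206 over the alternatives. Neither 0.47 (SE 0.17, adjusted p = 0.0757) for DKO-moderate against WT nor 0.23 (SE 0.17, adjusted p = 0.331) for DKO-severe against DKO-moderate passed. Without DKO-moderate replicate 1 or 3 the comparison with WT passed (adjusted p = 0.0264 and 0.037, range 0.0264 to 0.331), and without DKO-moderate replicate 4 so did that between the DKO groups (adjusted p = 0.0352, range 0.00853 to 0.981).

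DKO-moderate replicates 2 and 4 were also the 2 highest of their group for Nfkb2 and Bcl3. They had the lowest summed naive T cell level of the group, 2743.6 and 2722.2 CPM against 3990.7 and 4289.3 CPM in replicates 1 and 3, and summed Y-linked transcripts of 0 and 0.0265 CPM against 555.7 and 460.9 CPM. The part of either in the levels of Relb, Nfkb2 and Bcl3 was not tested within this group. In the other groups, summed Y-linked transcripts were also near 0 in WT replicate 2 (0 CPM) and DKO-severe replicate 3 (0.571 CPM). The remaining WT and DKO-severe libraries held 369.8 to 463.2 CPM.

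Rela (ENSMUSG00000024927, chr19:5637483-5648130, plus strand), the main activating subunit of the canonical branch, stayed between 144.1 and 174.4 CPM in all 12 libraries. Levels by library were 153.1, 169.4, 154.7 and 168.1 for WT, 156.4, 157.2, 167.6 and 174.4 for DKO-moderate, and 161.6, 144.1, 161.8 and 159.3 for DKO-severe. All groups overlapped, and no difference passed. The log2 difference from WT was -0.04 (SE 0.07, adjusted p = 0.637) in DKO-severe and 0.02 (SE 0.07, adjusted p = 0.852) in DKO-moderate. Its sign turned with the scaling of the libraries, reaching 0.14 (adjusted p = 0.112, range 0.112 to 0.994) for DKO-severe against WT with library size alone, where the median of all tested genes moved to 0.178.

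Rel (ENSMUSG00000020275, chr11:23736847-23770970, minus strand) encodes c-REL, a subunit prominent in lymphocytes. The CPM was 30.1, 37.9, 30.5 and 35.3 for WT, 34, 31.3, 30.8 and 19.8 for DKO-moderate, and 44, 30.8, 40 and 47.7 for DKO-severe. In DKO-severe, replicate 2 lay within the WT range, replicates 1, 3 and 4 were above it and, in DKO-moderate, replicate 4 was the lowest of the 12 libraries. The difference of DKO-severe from WT was 0.28 (SE 0.17, adjusted p = 0.188) and from DKO-moderate 0.49 (SE 0.17, adjusted p = 0.0655). Neither passed, although the first did with library size alone (0.46, adjusted p = 0.0323, range 0.0323 to 0.34) and the second in 5 of 12 other fits, among them DESeq2 (adjusted p = 0.0119, range 0.0119 to 0.231).

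**Figure D2:**
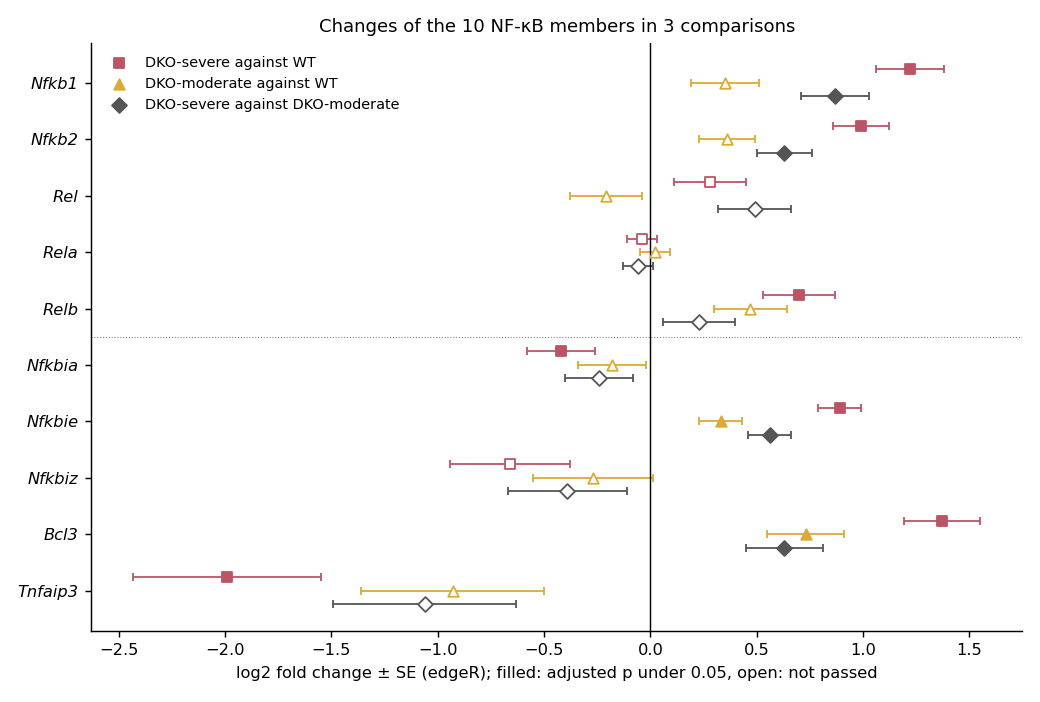
Log2 fold changes (horizontal axis) with their standard errors for the 10 genes in 3 comparisons from 1 edgeR fit of 12 libraries; filled marks passed an adjusted p of 0.05, open marks did not, and the dotted line parts subunits from inhibitors. Against WT, DKO-severe ran from -1.99 for Tnfaip3 to 1.37 for Bcl3, with Rela at -0.04.

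The make-up of the subunit transcripts was described relative to Rela, whose differences did not pass. Ratios of reads within a library do not depend on how libraries are scaled. Nfkb1 had 1.94 ± 0.0911 reads per Rela read in WT (SD, n = 4), 2.44 ± 0.234 for DKO-moderate and 4.62 ± 0.936 for DKO-severe, with no overlap between the groups (1.84 to 2.04, 2.11 to 2.66 and 3.25 to 5.32). Nfkb2 had 0.507 ± 0.00878 reads per Rela read in WT, 0.639 ± 0.0998 for DKO-moderate and 1.03 ± 0.113 for DKO-severe, also without overlap (0.501 to 0.520, 0.527 to 0.760 and 0.902 to 1.14). For Relb the ratio was 0.394 ± 0.0132, 0.534 ± 0.141 and 0.659 ± 0.0318, where the DKO groups overlapped, and for Rel it was 0.207 ± 0.0130, 0.178 ± 0.0454 and 0.258 ± 0.0366, where all groups overlapped. These ratios are descriptions and were not tested.

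Levels of different genes were compared per kilobase of exon. As a share of the summed CPM per kilobase of the 5 subunits, Rela made up 44.8% ± 0.421 in WT, 39.4% ± 2.27 for DKO-moderate and 28.8% ± 2.89 for DKO-severe (SD, n = 4). Nfkb1 made up 22.1% ± 0.860, 24.5% ± 2.81 and 33.4% ± 4.25, and Nfkb2 15.2% ± 0.248, 16.8% ± 1.88 and 19.8% ± 1.27. Relb stayed between 13.2% and 20.7% and Rel at or below 4.14% in every library. Rela was thus the leading subunit by this measure in WT, and Nfkb1 led in 3 of 4 DKO-severe libraries, replicate 2 being the exception with 27.4% for Nfkb1 and 33.1% for Rela. The measure rests on the length used. The exons of Nfkb1 in all its annotated transcripts cover 12061 bases, but its longest protein-coding transcript has 4117, and with the latter Nfkb1 led in every library, from 40.0% ± 1.24 in WT to 53.2% ± 4.89 in DKO-severe, while Rela went from 31.3% ± 0.526 to 17.8% ± 2.51. The fall of the Rela share and the rise of the Nfkb1 share between WT and DKO-severe appeared with either length.

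**Figure D3:**
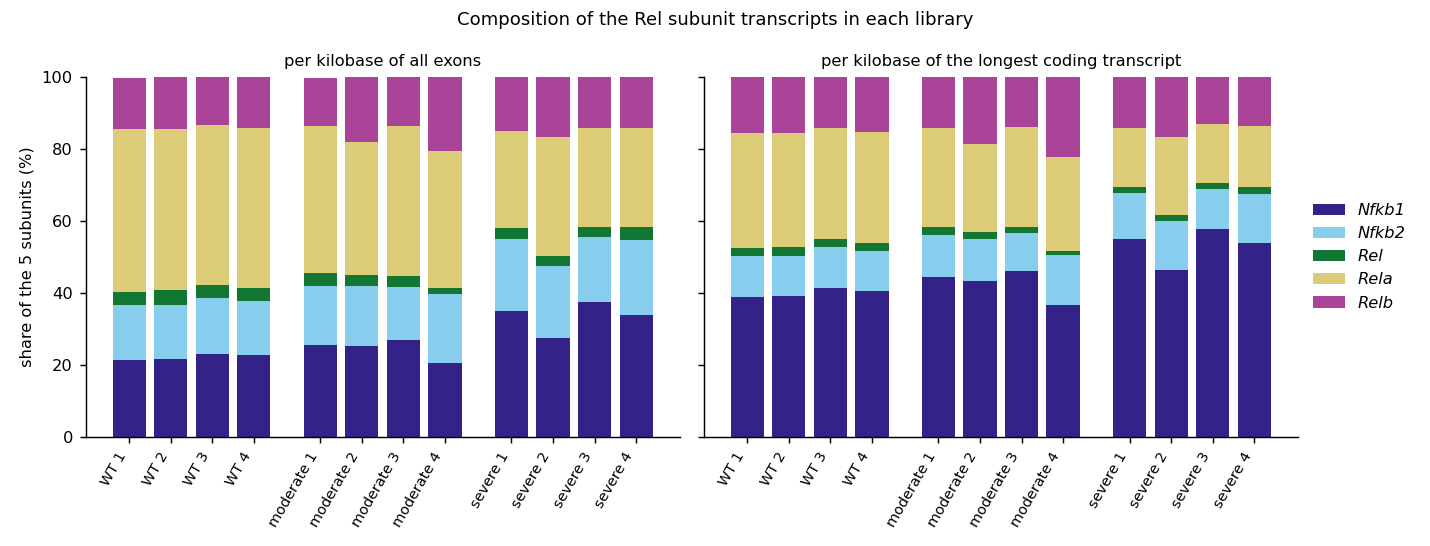
Share of each Rel subunit (vertical axis, percent) in the summed CPM per kilobase of the 5 subunits, 1 bar per library, with all annotated exons (left) or the longest protein-coding transcript (right) as the length. Rela took 44.5% to 45.4% in WT and 27.0% to 33.1% in DKO-severe in the left panel.

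Per kilobase of exon, the order of the 10 genes in WT was Nfkbia (238.5 CPM per kilobase), Tnfaip3 (85.1), Rela (52.5), Nfkbiz (26.1), Nfkb1 (25.9), Nfkb2 (17.8), Relb (16.4), Nfkbie (12.9), Bcl3 (11.2) and Rel (4.48). The neighbours Tnfaip3 and Rela, Nfkbiz and Nfkb1, Nfkb2 and Relb, and Nfkbie and Bcl3 overlapped between libraries and were not told apart. In DKO-severe the order was Nfkbia (177.9), Nfkb1 (60.5), Rela (51), Nfkb2 (35.4), Bcl3 (29), Relb (26.6), Nfkbie (23.8), Tnfaip3 (21.5), Nfkbiz (16.5) and Rel (5.44), where Nfkbia stood apart from Nfkb1, Rela from Nfkb2 and Nfkbiz from Rel, and all other neighbours overlapped. Nfkb1 and Bcl3 thus stood higher in the order and Tnfaip3 lower in DKO-severe. The order rests on the length used, and per kilobase of the longest transcript Nfkbia (181.5) and Nfkb1 (177.1) overlapped in DKO-severe.

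Among the inhibitors, Nfkbia (ENSMUSG00000021025, chr12:55489410-55492647, minus strand), which encodes IκBα, the inhibitor that is degraded and remade within each round of signalling, was the most abundant of the 10 genes per kilobase of exon, at 238.5 ± 50.3 CPM per kilobase in WT and 177.9 ± 28.9 in DKO-severe. By library it read 349.7, 474.5, 421.9 and 290.0 CPM for WT, 333.2, 399.6, 290.2 and 330.2 for DKO-moderate, and 299.5, 219.0, 325.5 and 301.9 for DKO-severe. DKO-severe and WT overlapped through WT replicate 4. The fall of 0.42 on the log2 scale in DKO-severe against WT (SE 0.16) passed narrowly (adjusted p = 0.0465), and it passed in 1 of 12 other fits and in 3 of 12 fits with 1 library left out, in a range of 0.0152 to 0.383.

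Nfkbie (ENSMUSG00000023947, chr17:45555703-45563169, plus strand) encodes IκBε, another cytoplasmic inhibitor. It went the other way, from 37.4, 38.6, 39 and 41.5 CPM for WT to 48.6, 46.4, 49.1 and 53.1 for DKO-moderate and 74.9, 56.4, 77.6 and 81.1 for DKO-severe. No library overlapped with another group. Nfkbie was higher by 0.89 (SE 0.10, adjusted p = 3.78e-05) in DKO-severe against WT and by 0.56 (SE 0.10, adjusted p = 0.00567) against DKO-moderate. It was 1 of the 2 genes that passed in DKO-moderate against WT, by 0.33 (SE 0.10, adjusted p = 0.0456), and that call held in 9 of 12 other fits but in 2 of 12 with 1 library left out, in a range of 0.00808 to 0.117. The number of Nfkbie reads per Nfkbia read was 0.106 ± 0.0269 in WT, 0.148 ± 0.0234 for DKO-moderate and 0.254 ± 0.0127 for DKO-severe, whose lowest library (0.238) was above all others.

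Bcl3 (ENSMUSG00000053175, chr7:19808462-19822770, minus strand) encodes a nuclear IκB protein that binds p50 and p52 dimers on DNA and lends them an activation domain. It showed the largest rise of the 10. WT libraries held 24.7, 25.1, 24.2 and 37.3 CPM, those of DKO-moderate 41.2, 59.7, 36 and 48.4, and those of DKO-severe 86.6, 65.7, 69 and 66.1. WT replicate 4 stood above the other WT libraries and overlapped with DKO-moderate replicate 3, and DKO-severe lay above both other groups. Bcl3 was higher by 1.37 (SE 0.18, adjusted p = 8.04e-05) in DKO-severe and by 0.73 (SE 0.18, adjusted p = 0.0152) in DKO-moderate against WT. The second call was lost without WT replicate 1 or 2 (adjusted p = 0.0533 and 0.0512, range 0.00112 to 0.0533). Between the DKO groups the difference was 0.63 (SE 0.18, adjusted p = 0.0272), which did not pass without the 3 libraries rich in genes of other cells (0.55, adjusted p = 0.124) or without DKO-moderate replicate 1, DKO-moderate replicate 3 or DKO-severe replicate 1 (adjusted p = 0.0808, 0.0786 and 0.0796), in a range of 0.00239 to 0.489.

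Nfkbiz (ENSMUSG00000035356, chr16:55811375-55838899, minus strand) encodes IκBζ, also a nuclear IκB protein and an early response gene. The CPM was 129.6, 201.5, 115.0 and 78.1 for WT, 142.8, 137.2, 77.6 and 75.9 for DKO-moderate, and 95.3, 75, 71.7 and 89.2 for DKO-severe. The groups overlapped, and the spread was widest in WT. Its difference from WT in DKO-severe, -0.66 (SE 0.28), did not pass (adjusted p = 0.0626) and did so without WT replicate 4 (-0.85, adjusted p = 0.0198, range 0.0198 to 0.235). Reads of Bcl3 per Nfkbiz read went from 0.251 ± 0.156 in WT and 0.456 ± 0.143 in DKO-moderate to 0.872 ± 0.0942 in DKO-severe, whose lowest library (0.741) was above the highest of the others (0.638).

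Tnfaip3 (ENSMUSG00000019850, chr10:19000910-19015657, minus strand) encodes A20, a ubiquitin-editing enzyme that shuts off signalling upstream of IκB kinase. Levels by library were 530.8, 1065.2, 628.8 and 234.9 CPM for WT, 495.6, 405.1, 260.2 and 130.9 for DKO-moderate, and 135.1, 129.7, 193.3 and 162.7 for DKO-severe. All 4 DKO-severe libraries were below all WT libraries, and the coefficient of variation was 55.9% in WT and 18.8% in DKO-severe. Tnfaip3 fell by 1.99 on the log2 scale in DKO-severe against WT (SE 0.44, adjusted p = 0.00274), the largest change of the 10. It passed in 10 of 12 other fits and in 12 of 12 with 1 library left out, and missed the threshold with terms for neutrophil and B cell genes (-1.68, adjusted p = 0.159) and without the 3 libraries rich in genes of other cells (-1.78, adjusted p = 0.0508), in a range of 1.75e-05 to 0.159. Neither -0.93 (SE 0.43, adjusted p = 0.158) in DKO-moderate against WT nor -1.06 (SE 0.43, adjusted p = 0.100) between the DKO groups passed, the latter doing so without DKO-moderate replicate 4 (-1.28, adjusted p = 0.0388, range 0.0388 to 0.632).

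Immediate early genes respond within minutes to stimulation and also to cell handling, and their level is given beside those of Tnfaip3, Nfkbia and Nfkbiz. The summed level of 13 of them was 2483.0 to 3087.6 CPM in WT, 1465.5 to 2355.1 for DKO-moderate and 1040.8 to 1479.4 for DKO-severe, and 8 of the 13 passed as lower in DKO-severe against WT, where 25.9% of all tested genes did. DKO-moderate replicate 4 had the lowest sum of its group, 1465.5 CPM, and the lowest Tnfaip3, 130.9 CPM, but WT replicate 4, with the lowest Tnfaip3 of WT, had a sum of 2776.1 CPM, within the range of its group. With a term for these genes, Tnfaip3 still passed in DKO-severe against WT (-1.79, adjusted p = 0.0335). However, the sum of every DKO-severe library (at most 1479.4 CPM) lay below that of every WT library (at least 2483.0 CPM). A term for these genes thus overlaps with the group, for Tnfaip3 and for every other gene fitted with it. Their part in the level of Tnfaip3 was not tested further. Over the 12 libraries after centring each group on its mean, Pearson's r of log2 CPM was 0.85 between Nfkbiz and Tnfaip3. It was 0.67 between Nfkbia and each of them, 0.86 between Nfkb2 and Relb, and 0.81 between Nfkb1 and Nfkbie. These pairs were picked from all pairs of subunit and inhibitor genes, and they do not mark separate sets. Rela and Nfkbie had an r of 0.76, Nfkb2 and Nfkbie 0.72, and Nfkb2 and Rela 0.67. For Rel and Tnfaip3 it was 0.55, and for Nfkb1 and Nfkbia 0.52. Other pairs were lower, down to -0.41 for Relb and Tnfaip3. These values describe 12 points that share depth and cell mixture within a library.

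**Figure D4:**
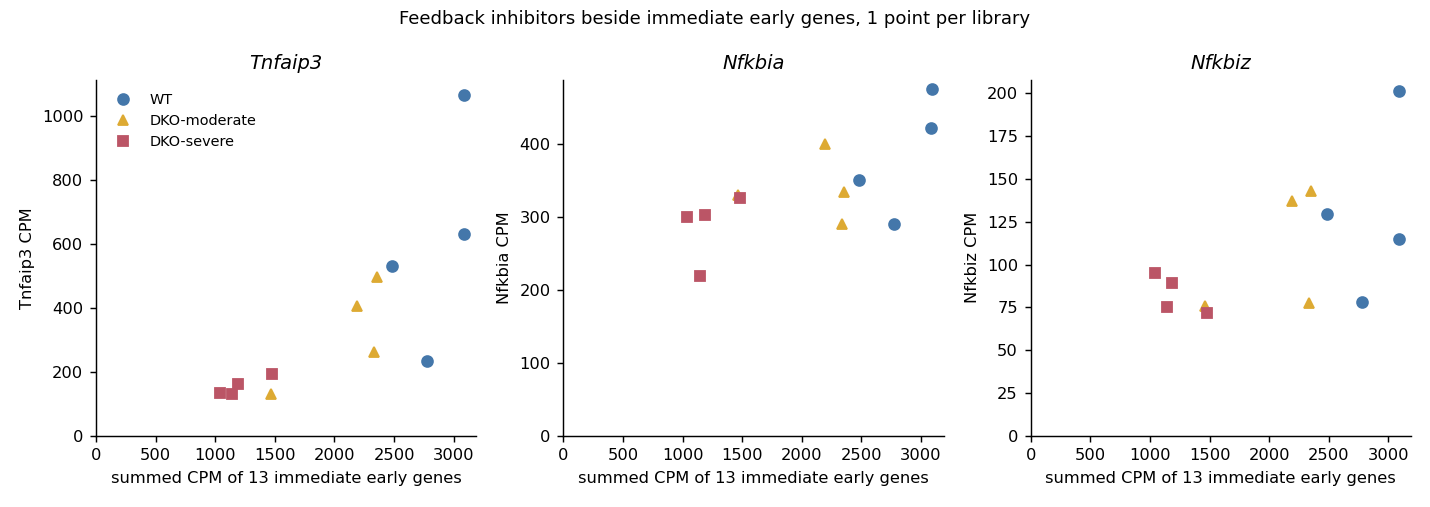
CPM of Tnfaip3, Nfkbia and Nfkbiz (vertical axes) against the summed CPM of 13 immediate early genes (horizontal axes), 1 point per library, coloured and shaped by group. The DKO-severe libraries lay at sums of 1040.8 to 1479.4 and Tnfaip3 levels of 129.7 to 193.3 CPM, and the WT libraries at sums of 2483.0 to 3087.6 and Tnfaip3 levels of 234.9 to 1065.2 CPM.

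The other genes of the pathway were described with 72 genes in 7 lists, all of them tested. In DKO-severe against WT, 23 of them rose and 21 fell, 61.1% in all, beside 52.6% of all tested genes, with a median log2 fold change of 0.12. In DKO-moderate against WT 17 rose and 8 fell (34.7%, beside 17.1% of all tested genes), and between the DKO groups 9 rose and 9 fell (25.0%, beside 20.1%). With terms for neutrophil and B cell genes, 8 of the 26 pathway genes named here (Nfkbib, Malt1, Rnf31, Prkcq, Birc2, Tnip2, Rnf11 and Itch) no longer passed in DKO-severe against WT (adjusted p of 0.0578 to 0.361).

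The other 2 IκB genes went in opposite directions. Nfkbib (IκBβ) rose from 45.0 ± 1.61 to 57.5 ± 6.12 CPM (SD, n = 4) in DKO-severe, by 0.36 (SE 0.11, adjusted p = 0.0187), and that call was lost without DKO-severe replicate 1 (adjusted p = 0.0556) and without the 3 libraries rich in genes of other cells (adjusted p = 0.0635), in a range of 0.00109 to 0.356. Nfkbid, which encodes the nuclear IκBNS, fell from 82.8 ± 20.6 to 50.3 ± 5.13 CPM, by 0.72 on the log2 scale (SE 0.16, adjusted p = 0.0026).

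Of 16 genes for the kinases and adaptors of the canonical branch, 1 rose, 6 fell and 9 did not pass in DKO-severe against WT, with a median of -0.22. The 43.8% called was below the 52.6% of all tested genes. By direction, 1 of 16 was higher, as were 26.6% of all tested genes, and 6 of 16 were lower, as were 25.9%. The list was not tested as a whole. Ikbkb, the catalytic subunit of IκB kinase that acts on IκB proteins, had 253.7 ± 30.8 CPM in WT, 174.3 ± 33.4 for DKO-moderate and 116.5 ± 14.9 for DKO-severe, and fell by 1.12 on the log2 scale in DKO-severe against WT (SE 0.15, adjusted p = 6.94e-05). Prkcq, a kinase that links the T cell receptor to this branch, fell by 0.58 (SE 0.11) on the log2 scale, and Rnf31, of the linear ubiquitin ligase complex, also by 0.58 (SE 0.09). The exception was Malt1, a protease and scaffold of antigen receptor signalling, which rose from 201.6 ± 19.7 to 365.7 ± 30.3 CPM, by 0.86 (SE 0.21, adjusted p = 0.00532), a call that was also lost with a term for immediate early genes (adjusted p = 0.0624, range 8.53e-05 to 0.361).

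In the noncanonical branch, which frees p52 from its precursor, 2 of 5 genes fell and 3 did not pass, which at 40.0% called was likewise below the share of all genes. Map3k14, the kinase NIK that starts the processing of the Nfkb2 product, fell from 92.3 ± 2.20 CPM in WT to 60.6 ± 14.1 in DKO-moderate and 45.3 ± 4.19 in DKO-severe, by 1.03 on the log2 scale in DKO-severe (SE 0.14, adjusted p = 0.000105) and by 0.61 in DKO-moderate (SE 0.14, adjusted p = 0.0118). Birc2, a ubiquitin ligase that keeps NIK low, fell by 0.71 (SE 0.11, adjusted p = 0.000303) on the log2 scale in DKO-severe. The level of Map3k14 and that of Nfkb2 and Relb thus went in opposite directions.

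Among 10 partners of A20 and other negative regulators, 3 rose, 5 fell and 2 did not pass (80.0% called, beside 52.6% of all genes). Otud7b, a deubiquitinase that acts on the noncanonical branch, rose from 56.3 ± 7.40 CPM in WT to 92.5 ± 23.7 in DKO-moderate and 133.5 ± 11.3 in DKO-severe, by 1.24 in DKO-severe (SE 0.16, adjusted p = 6.56e-05). Tnip2, an A20-binding inhibitor, rose by 0.88 (SE 0.13) and Rnf11, a component of the A20 complex, by 0.73 (SE 0.11), while Itch, a ubiquitin ligase of the same complex, fell by 0.47 on the log2 scale (SE 0.15, adjusted p = 0.0195), a call also lost without DKO-severe replicate 3 or 4 (adjusted p = 0.0655 and 0.0632), with library size alone (0.106), with a term for immediate early genes (0.334) and without the 3 libraries rich in genes of other cells (0.0906), in a range of 0.000505 to 0.334. Genes of the A20 complex thus went in both directions beside the fall of Tnfaip3.

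Receptors of the TNF family had the highest median of the 7 lists. In DKO-severe against WT 7 of 12 rose, 2 fell and 3 did not pass (75.0% called, beside 52.6% of all tested genes), with a median of 1.34. The list also holds Cd40, Tnfrsf13b and Tnfrsf13c, and the part of B cells and other admixed cells in this count was not tested. Tnfrsf8 (CD30) ranged from 0.402 to 0.902 CPM in WT, from 1.27 to 3.31 in DKO-moderate and, most widely, from 4.38 to 67.7 in DKO-severe, where it was higher than in WT by 6.0 (SE 0.73, adjusted p = 4.51e-05). Tnfrsf4 (OX40), a costimulatory receptor, rose from 19.9 ± 6.20 to 120.6 ± 59.1 and 262.4 ± 61.5 CPM, by 3.72 in DKO-severe (SE 0.36, adjusted p = 1.3e-05) and by 2.6 in DKO-moderate (SE 0.35, adjusted p = 0.00059). Tnfrsf9, likewise a costimulatory receptor, rose by 2.42 (SE 0.29) in DKO-severe. The receptors of TNF itself parted, as Tnfrsf1b rose from 102.3 ± 13.9 to 412.0 ± 66.5 CPM, by 2.01 (SE 0.16, adjusted p = 5.4e-06), and Tnfrsf1a fell from 53.7 ± 1.92 to 23.3 ± 3.97 CPM, by 1.20 on the log2 scale (SE 0.14, adjusted p = 4.13e-05).

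Of 7 ligands, 3 rose, 2 fell and 2 did not pass (71.4% called, beside 52.6% of all tested genes). Tnfsf8, the ligand of CD30, rose from 62.7 ± 16.0 CPM in WT to 284.0 ± 92.8 in DKO-moderate and 382.7 ± 16.4 in DKO-severe, by 2.61 in DKO-severe (SE 0.22, adjusted p = 7.33e-06). Tnfsf11 (RANKL) rose by 1.88 (SE 0.24) and Tnfsf14 (LIGHT) by 1.65 (SE 0.21), and all 3 had passed in DKO-moderate against WT as well. Ltb, a subunit of the lymphotoxin that engages the noncanonical branch, fell from 768.9 ± 90.5 to 319.0 ± 48.9 CPM, by 1.27 on the log2 scale (SE 0.14, adjusted p = 2.69e-05).

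Among 20 genes that textbooks list as targets of NF-κB in lymphocytes, 8 rose, 3 fell and 9 did not pass in DKO-severe against WT. In both directions together, the 55.0% called was close to the 52.6% of all genes. By direction, 26.6% of all tested genes were higher and 25.9% lower. The median log2 fold change of the 20 was 0.85, and the list was not tested as a whole. Irf4, a transcription factor of activated lymphocytes and plasma cells, rose from 34.1 ± 8.09 CPM in WT to 124.5 ± 37.9 in DKO-moderate and 283.6 ± 61.2 in DKO-severe, by 3.06 in DKO-severe (SE 0.25, adjusted p = 6.47e-06). Il2ra (CD25) rose from 11.8 ± 3.77 to 97.0 ± 18.6 CPM, by 3.04 (SE 0.26, adjusted p = 7.13e-06), and Cd83 by 2.76 (SE 0.52, adjusted p = 0.000875). Bcl2a1d, an anti-apoptotic gene, rose by 2.72 (SE 0.29), but it has near-identical copies whose reads the counting of unique positions can leave out or split. Junb, which is also an early response gene, fell from 2023.4 ± 561.3 to 533.2 ± 143.0 CPM, by 1.92 on the log2 scale (SE 0.29, adjusted p = 0.000176). Irf4 is high in plasma cells, and the summed level of 5 plasma cell genes was 49.1 to 146.1 CPM in WT and 188.8 to 351.2 CPM in DKO-severe; its part in the level of Irf4 was not tested.

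**Figure D5:**
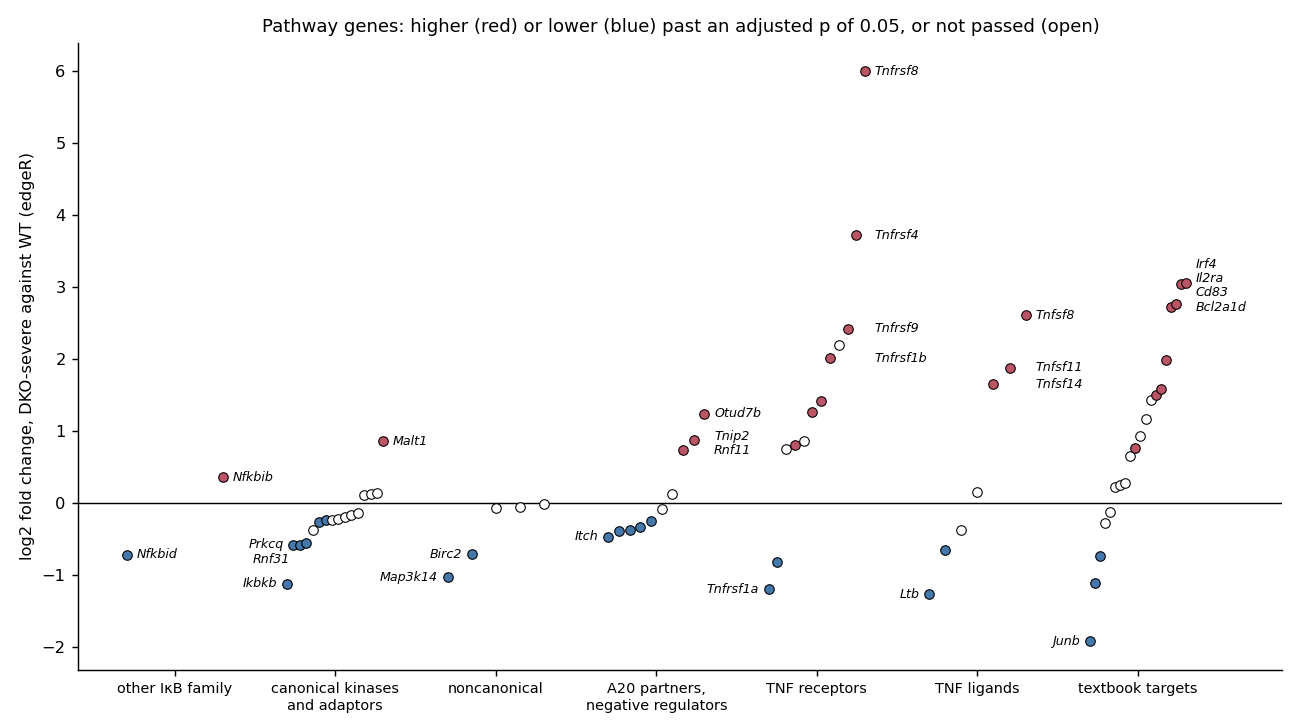
Log2 fold change of DKO-severe relative to WT (vertical axis, edgeR) of 72 pathway genes in 7 lists, ordered by size within each list; red points passed as higher, blue points as lower, and open points did not pass an adjusted p of 0.05. TNF receptors reached 6.0 for Tnfrsf8, whereas the genes of the canonical and noncanonical chains lay between -1.12 for Ikbkb and 0.86 for Malt1.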

How the data were processed

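RNA was sequenced from CD4+ YFP(FOXP3)- T cells of 12 mice, 4 in each of 3 groups taken from the labels. The authors made directional libraries, aligned reads to mm10 with STAR 2.7.11 keeping reads with 1 position, and counted them by strand with htseq-count (reverse). The deposited values are raw read counts per gene, without normalization. Which annotation was counted is not given in the sources used here. Loci and exon lengths come from GENCODE M21 (GRCm38), matched by symbol. Records not assigned to a gene, 18.5% to 23.7% of a library, were left out.

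Testing was limited to the 16035 of 26608 genes that reached 10 reads in total in the libraries of at least 1 condition. edgeR 4.0.16, run in R 4.3.3 with TMM factors, fitted the 12 libraries in a single model, and its quasi-likelihood F tests were adjusted by Benjamini-Hochberg across every tested gene (threshold 0.05). Standard errors were taken as the absolute log2 fold change over the root of the F value. CPM carry the TMM factors, and their log2 values had a prior count of 2 added. The tests set each group difference against the variation between libraries, 1 per mouse, which also holds differences in cell mixture. Within each group, no pair of libraries agreed within sampling noise (the chi-square was at least 21.6 for each degree of freedom). The steps were also run on simulated counts in which few genes changed and no other cells were mixed in. Such counts differ from these data, so that run does not test the scaling used here.

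The 10 genes, the lists and the alternatives were chosen with earlier results of these data known, and Nfkb1 is among the genes the study names for these libraries, so no list was tested as a whole. Named besides the 10 genes were, from each pathway list, up to 4 genes with the largest change past the threshold in DKO-severe against WT and at least 5 CPM on average in the higher group, with 1 more in the other direction where all went one way, and for each of the 10 the 3 genes most like it. The alternatives were DESeq2 1.42.0 (the tool of the study), limma 3.58.1 (voom, with weights for library quality), other scaling and filters, the replicate number as a block, a fit of only the compared groups, terms for Y-linked, immediate early, or neutrophil and B cell genes, and leaving out each library in turn; leaving out 3 libraries together and the transcript length in the shares were chosen after seeing the data. Python 3.11.15, pandas 2.3.3, numpy 2.4.6 and matplotlib 3.10.9 made tables and plots.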

Additional observations from a re-analysis of the deposited data

Results flagged for a closer look

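In each group of 4 libraries, the highest and the lowest were compared with the rest for 99 combinations of a measure and a group by Dixon's test of the gap to the nearest library. Chance singles out about 1 in 20 groups, and 10 were found here.

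Bcl3 was at 37.3 CPM in WT replicate 4, against 24.2 to 25.1 in the other WT libraries, and at 86.6 CPM in DKO-severe replicate 1, against 65.7 to 69.0. Rela was at 144.1 CPM in DKO-severe replicate 2, against 159.3 to 161.8, and this library also had the highest share of Rela in its group, 33.1% against 27.0% to 27.6%. Reads of Nfkb2 per Rela read were 0.520 in WT replicate 3, against 0.501 to 0.504. The same library stood above the other WT libraries in the summed CPM of B cell genes (212.4 against 6.81 to 15.2), plasma cell genes (146.1 against 49.1 to 56.5), neutrophil genes (4.23 against 0.0273 to 0.258), monocyte and macrophage genes (191.4 against 11.7 to 25.1) and dendritic cell genes (10.3 against 0.776 to 1.61).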

How the results depend on the processing

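Of 10 genes in 3 comparisons, most kept their direction and their side of the threshold. Over 12 other settings, 314 of the values did so, 25 lost and 11 gained a call, and 10 changed sign; with 1 library left out at a time, 322 did so, 24 lost and 8 gained a call, and 6 changed sign. Nfkb1, Nfkb2, Nfkbie and Bcl3 passed in DKO-severe against WT in all 12 settings and all 12 fits with 1 library left out. With terms for neutrophil and B cell genes, which an earlier analysis chose with values in view, 3379 genes in place of 8428 and 4 of the 10 in place of 7 passed in that comparison, and between the DKO groups 153 genes in place of 3217 and 0 of the 10 in place of 4 (edgeR; 4 had an unadjusted p under 0.05). Nfkb1 and Nfkbie had edgeR adjusted p-values of 0.0743 and 0.0572 there, with log2 differences of 1.03 and 0.73 in place of 0.87 and 0.56. Between the DKO groups, limma voom called 6126 genes, a term for immediate early genes left 1135 genes and 2 of the 10, and leaving out the 3 libraries rich in genes of other cells, a choice made after seeing the data, left 2055 genes. In DKO-moderate against WT, 1 of the 10 passed with no filter, with a term for Y-linked genes or with a term for immediate early genes, and 4 with DESeq2, which called 3933 genes in place of 2734. With 1 library left out, 1616 (without WT replicate 1) to 2920 genes and 0 (without WT replicate 1 or 2, where 4 had an unadjusted p under 0.05) to 3 of the 10 passed there, and 1646 (without DKO-moderate replicate 1) to 3670 genes between the DKO groups. The causes were not tested.

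Rela, which passed nowhere, changed sign. In DKO-severe against WT its log2 difference was 0.00 with a filter of 10 reads in each library of some condition or with terms for neutrophil and B cell genes, 0.04 with DESeq2 or its size factors, 0.14 with library size alone and 0.01 with only the groups compared, and -0.07 to 0.02 with 1 library left out. In DKO-moderate against WT it was -0.01 with limma voom and -0.01 to 0.05 with 1 library left out, and between the DKO groups 0.01 with DESeq2 or its size factors, 0.04 with library size alone and -0.09 to 0.01 with 1 library left out. Nfkbiz in DKO-moderate against WT ran from -0.46 to 0.01 with 1 library left out.

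The shares of the subunits depended on the length, given here for WT, DKO-moderate and DKO-severe. With coding length, Nfkb1 made up 36.9%, 40.1% and 50.7%, Nfkb2 10.3%, 11.2% and 12.2%, Rel 6.55%, 4.88% and 4.75%, and Rela 33.1%, 28.6% and 19.5%, with 13.1% for Relb in WT and 12.9% in DKO-severe. With the longest protein-coding transcript, Nfkb1 made up 40%, 42.6% and 53.2%, Nfkb2 11.2%, 11.9% and 12.9%, Rel 2.36%, 1.72% and 1.66%, and Rela 31.3%, 26.5% and 17.8%, with 15.1% for Relb in WT.

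Groups share replicate numbers, which are not stated to pair the mice and were not treated as pairs. The deviations of same-numbered libraries had a median correlation of -0.035 (-0.272 to 0.208), and those of other pairs 0.013 (-0.318 to 0.303). Overlapping ranges of this width cannot exclude a weak pairing. With the replicate number as a block, 7794, 2201 and 2321 genes and 6, 2 and 4 of the 10 passed in DKO-severe against WT, DKO-moderate against WT and between the DKO groups, and of the 10 the call of Nfkbia in DKO-severe (adjusted p = 0.0919, range 0.0152 to 0.383) was lost.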

Other observations

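For each of the 10 genes, the 3 genes with the most similar log2 CPM over the 12 libraries were listed among 9996 genes with a mean of at least 5 CPM. Nfkb1 was most like Tnfrsf8 (CD30), Sirt2 and Dkk3 (Pearson's r of 0.98 for each), and Nfkb2 like Lap3, H2afz and Tmem176a (0.98 for each). Relb was most like Mvp (0.98), Bcl7c and Cstb (0.97 for both). Nfkbie was most like Plk4, Lmnb1 and Adra1b (0.99 for each), of which Plk4 drives centriole duplication and Lmnb1 encodes a nuclear lamin, and Bcl3 like Susd2 (0.99), Acot11 and Fuca2 (0.98 for both). Rel was most like Slc26a2 (0.93), Kif3b (0.92) and Rap2c (0.91), and Rela like 2810002N01Rik (0.87), Yipf3 (0.86) and Psmf1 (0.84). Nfkbia was most like Plk2 (0.85), Dse (0.84) and Rgs2 (0.83), Nfkbiz like Fyttd1 (0.93), Ttc14 (0.89) and Vamp2 (0.87), and Tnfaip3 like Ptp4a1 (0.97), Dnajb9 (0.96) and Csrnp1 (0.95). With each group centred on its mean, r of Tnfaip3 was 0.93, 0.95 and 0.97 with these 3 genes, and r of Nfkb1 with Tnfrsf8 was 0.91. The genes were picked as the highest of many, and the 12 points share group, depth and cell mixture.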
